A study of Mus musculus with 10 samples.

Results

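The caveolin genes Cav1 and Cav2 were looked up by symbol in a matrix of RNA pulled down with the RNA-binding protein MEX3A from mouse neural stem cell cultures. Of the 2 genes named, 1 was found among the 15899 genes of the matrix, Cav2 (ENSMUSG00000000058), and Cav1 was not analysed here. The symbol alone chose the gene, and its values in all 10 libraries are described. The authors of the study had listed Cav2 among the RNAs enriched in these same libraries, so its direction here is not independent evidence.

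The libraries come from RNA immunoprecipitation followed by sequencing (RIP-seq) with an anti-FLAG antibody, in neurospheres grown with EGF and FGF from the subependymal zone of mice aged 10 weeks. FLAG cultures carried the genotype Mex3aFLAG/FLAG, in which a triple FLAG tag is fused to the C-terminal end of MEX3A at its own locus on both alleles. WT cultures of the same background (Mex3a+/+) carry no tag, so that their libraries give the RNA that the antibody and beads retain without it. Each genotype had 2 libraries from cells crosslinked with formaldehyde and 3 from native, uncrosslinked cells. The tagged protein is made wherever Mex3a is active, since no other promoter or Cre drives it. Neurospheres mix stem cells with progenitors, and the neural stem and progenitor genes Nes, Sox2, Vim, Fabp7, Slc1a3, Pax6 and Egfr had values in every library. The labels call the libraries replicates without saying whether each came from its own animal, so the p-values measure the spread between these libraries.

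Caveolins are hairpin-shaped membrane proteins that build the coat of caveolae, the small flask-shaped pits of the plasma membrane. CAV1 is the caveolin without which most cells form no caveolae, and CAV2 binds it and depends on it to leave the Golgi and reach the cell surface. Cavins coat the pit from the cytosol, EHD proteins hold its neck and pacsins bend the membrane. In the brain, caveolins are best known from the endothelium of blood vessels and are also found in glial cells. MEX-3 proteins bind RNA through paired KH domains, mostly in the 3' untranslated region (UTR) of messenger RNAs.

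Cav2 lies on the plus strand of chromosome 6 (GRCm38, chr6:17281185-17289115). Its longest transcript in GENCODE M21 has 3 exons and 2733 nt, of which 489 nt are coding and 2068 nt are 3' UTR. The element searched is the consensus of the nematode MEX-3 protein, which has 2 parts of 4 letters each with at most 8 bases between them. The authors state that target recognition by mammalian MEX3 proteins remains to be elucidated. Their paper prints the second part in 2 forms, and that of its methods is used first. The first part was searched as A, G or T, then G or T, then AG, and the second as T, then A, C or T, then TA. Such pairs occurred 3 times in the 3' UTR of this transcript, read on its own strand only. They are shown because they are the stretches of the Cav2 message that carry the letters of the element, with both parts in capitals and flanking bases in lower case (sequence from GENCODE M21).

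Site at chr6:17287894-17287909, plus strand: agacatGTAGttgttttgTTTActataa

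Site at chr6:17288105-17288114, plus strand: caattgTGAGggTTTAtaaaac

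Site at chr6:17288677-17288691, plus strand: tattgaTTAGtcaaaacTTTAacaata

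The coordinates span the capitals and the bases between them. The sites end 1206, 1001 and 424 nt before the end of the UTR, all in the last exon. Loose letters of this kind are common. Of 1034 genes whose 3' UTR was within 10% of the same length, 96.32% held at least 1 such pair, with a median of 5, and 79.59% held at least as many as Cav2. With the second part written as T, then A, C or T, then AT, Cav2 held 7 pairs against a median of 5. In this form, which the results of the paper print, 29.01% of the genes of like length held at least as many. The pentamer ATTTA, the core of AU-rich elements, occurred 3 times against a median of 3. These matches describe letters in the sequence and do not show where MEX3A sat.

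Cav2 RNA was higher in every FLAG pull-down than in any WT pull-down. On the deposited log2 scale its value in the crosslinked FLAG libraries was 1.47 in replicate 1 and 1.76 in replicate 2. In the crosslinked WT libraries it was -0.61 in replicate 1 and -0.86 in replicate 2. The groups were separated by a gap of 2.08, several times the spread within either, though with crosslinking 19.1% of all genes had every FLAG library above both WT libraries.

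Without crosslinking, Cav2 stood at 2.12, 0.85 and 2.15 in FLAG replicates 1, 2 and 3. The native WT libraries gave -0.16, -1.17 and 0.10 in replicates 1, 2 and 3. FLAG replicate 2 was the lowest of the FLAG libraries and still lay 0.75 above WT replicate 3, the highest WT library. The native groups thus did not overlap, as was the case in this direction for 8.62% of all genes, although their spread was wider than with crosslinking.

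**Figure D1:**
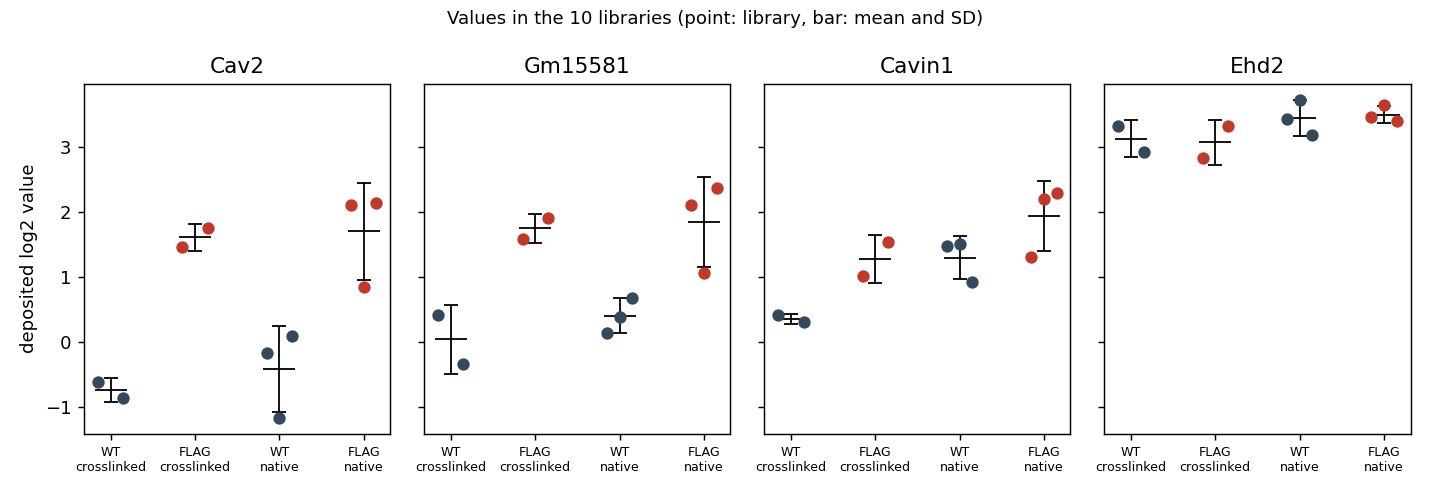
Deposited log2 values (vertical axis) of Cav2, Gm15581, Cavin1 and Ehd2 in the WT (dark) and FLAG (red) libraries of each protocol. Each point is 1 library, and the bars give the mean and SD of a group (n = 2 crosslinked, n = 3 native). All 5 FLAG points of Cav2 and of Gm15581 lie above all 5 WT points, while those of Ehd2 overlap.

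The group means, from the highest, were 1.70 ± 0.74 (SD, n = 3) in native FLAG, 1.61 ± 0.21 (n = 2) in crosslinked FLAG, -0.41 ± 0.67 (n = 3) in native WT and -0.74 ± 0.18 (n = 2) in crosslinked WT. The neighbours within a genotype did not differ beyond their spread. Crosslinked minus native was -0.09 in FLAG (95% interval -1.23 to 1.05) and -0.33 in WT (-1.46 to 0.81), intervals wide enough to hold a fall of over 2 times in either genotype. Such a separation of all 5 FLAG from all 5 WT libraries was found for 360 genes, 2.26% of all.

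FLAG exceeded WT by 2.35 on the log2 scale (SE 0.22, 95% interval 1.73 to 2.97) in the crosslinked libraries, which is 5.10-fold. In the native libraries the difference was 2.11 (SE 0.52, 0.92 to 3.31), or 4.33-fold. With the libraries of both protocols in 1 fit that allowed for the protocol, it was 2.21 (SE 0.33, 1.47 to 2.95), or 4.63-fold. The size depended on the scale of this low gene. With 1 added to the linear values the difference was 1.34 with crosslinking, 1.28 without and 1.31 over all libraries, and with 8 added it was 0.36, 0.38 and 0.37. The effect of native minus that of crosslinked libraries was -0.24 (95% interval -1.85 to 1.37, limma adjusted p = 0.975), so that the protocols were not shown to differ.

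A gene was called when its limma adjusted p-value (Benjamini-Hochberg over all genes) was under 0.05 and its log2 fold change above 0.58 in size. Cav2 was called higher over all libraries (adjusted p = 0.0287), as were 42 genes in all, 0.264% of those tested. Another 37 genes, 0.233%, were called lower. Its fold change ranked 46 of 15899 genes over all libraries, 22 with crosslinking and 116 without. Within a protocol Cav2 did not pass, with an adjusted p of 0.315 with crosslinking and 0.212 without. In the crosslinked libraries limma called no gene in either direction, and 442 genes (2.78%) passed in the higher direction at an unadjusted p under 0.05, Cav2 among them. In the native libraries no gene was called higher and 17 (0.107%) were called lower, while 1235 (7.77%) passed at an unadjusted p under 0.05, again with Cav2. By an exact two-sided permutation of the FLAG and WT labels within each protocol, p was 0.0167 for Cav2, the smallest that the 120 arrangements allow. These tests took the 10 libraries as independent, while crosslinked and native libraries of the same genotype and number deviated together (r of 0.178 and 0.154 in FLAG and 0.300 and 0.388 in WT over all genes). With genotype and number as a random block the difference was 2.20 (SE 0.39) and Cav2 was not called (limma adjusted p = 0.0823, consensus correlation 0.327). When same-numbered libraries of a genotype were moved together, the exact permutation p was 0.167, the smallest that the 12 arrangements of 6 such units allow, and this holds for each of the permutation tests given here.

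The call over all libraries was also sensitive to single libraries. Leaving out 1 library at a time kept the difference between 2.02 and 2.46, while the adjusted p ranged from 0.00788 to 0.106. It passed 0.05 when crosslinked FLAG replicate 1 (0.0529) or 2 (0.106), crosslinked WT replicate 1 (0.0872), native FLAG replicate 1 (0.0691) or 3 (0.0890), or native WT replicate 1 (0.0809) or 2 (0.0694) was absent. Without native FLAG replicate 2, the native comparison was called by itself (2.54, limma adjusted p = 0.0162). That omission left native FLAG replicates 1 and 3, and it raised the genes called higher over all libraries from 42 to 516.

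**Figure D2:**
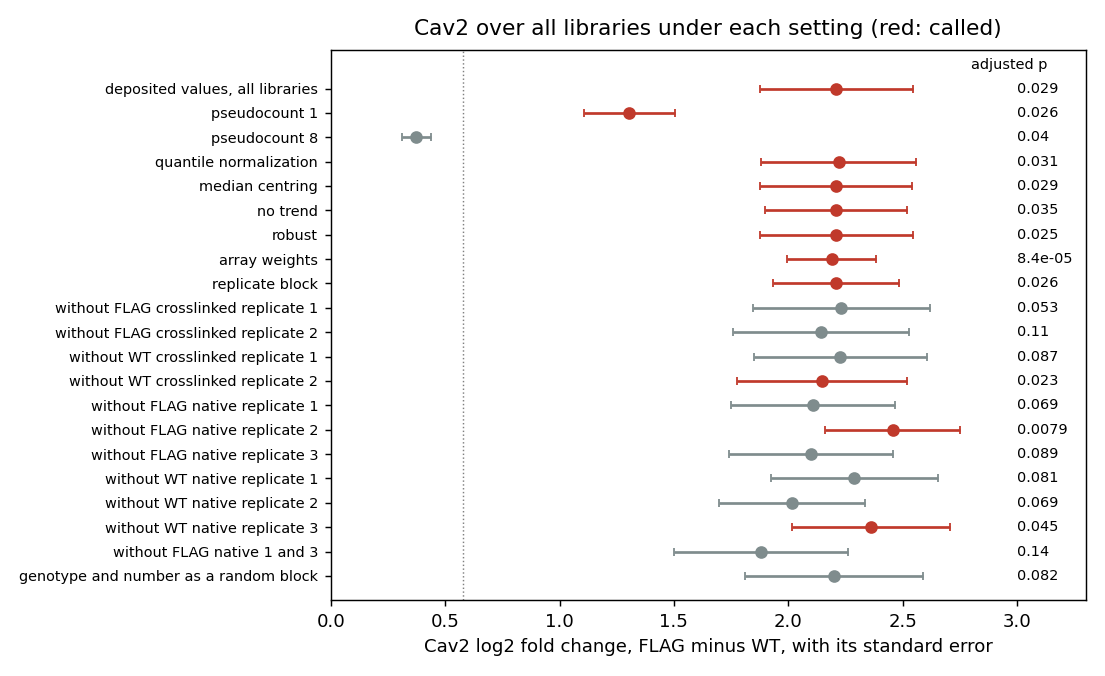
Cav2 log2 fold change of FLAG over WT across all libraries (horizontal axis, point) with its standard error (bar) under each setting, and the limma adjusted p at the right. Red settings passed both thresholds, the dotted line marks 0.58, and apart from the added pseudocounts the fold change stayed between 1.88 and 2.46.

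Cav2 was a rare RNA in these pull-downs. Its value lay between 17.1% and 37.7% of the way up the genes of each FLAG library, and between 1.598% and 7.69% in the WT libraries. Per kb of exon (3335 nt over all transcripts), the mean log2 level of Cav2 was -0.12 in crosslinked FLAG and -0.03 in native FLAG. It was -2.48 and -2.15 in the WT groups. On the same scale Cavin1 stood at -0.57 and 0.10 in FLAG and at -1.48 and -0.54 in WT, and Egfr, a receptor that neurospheres depend on, at 6.78 or above in every group.

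The matrix does not give read counts, but low genes share exactly equal values within a library. If these ties stand for equal whole counts, the place of Cav2 among the distinct values sets a lower limit on its reads. For FLAG the limit was 143 and 348 reads with crosslinking and 69, 83 and 92 without. For WT it was 57 and 55 reads with crosslinking and 29, 17 and 39 without, so that Cav2 was not at the detection floor in any library. Native FLAG replicates 1 and 3 stood apart, with 329 and 178 genes at the lowest value against at most 3 elsewhere. They also held the highest Cav2 values of all. Without both, the native difference rested on 1 FLAG library and was 1.26 (SE 0.72, limma adjusted p = 1.0), and that over all libraries was 1.88 (SE 0.38, adjusted p = 0.137).

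More Cav2 RNA per cell, more cells that make it and more of it held by the tagged protein cannot be told apart in such pull-downs, and input RNA was not analysed here. Mex3a itself was higher in FLAG by 1.15 with crosslinking (SE 0.15) and 2.11 without (SE 0.50), with an adjusted p of 0.0789 over all libraries. Its FLAG libraries lay above its WT libraries in both protocols. The highest values of Mex3a, 5.95 and 6.10, were in native FLAG replicates 1 and 3, as were those of Cav2.

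The nearest gene to Cav2 is Gm15581 (ENSMUSG00000085264, chr6:17206823-17385604), an antisense RNA on the minus strand whose body spans both caveolin genes. Cav2 lies inside an intron of it, and the exons of the genes share 0 bases in GENCODE M21. The libraries were made with a stranded kit, but whether the reads were counted by strand is not given in the sources used here. Reads from unannotated parts of either strand therefore cannot be told apart here. Gm15581 also shares 465 exon bases with D830026I12Rik, a gene on the opposite strand that was not analysed here. Of 2659 windows of 75 nt, the length of the reads, in the longest Cav2 transcript, 0 occurred in another gene's transcripts, against 5.77% of the windows of Gm15581.

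Gm15581 was also higher in FLAG. Its values were 1.59 and 1.91 in crosslinked FLAG against 0.42 and -0.34 in crosslinked WT. In native FLAG they were 2.12, 1.07 and 2.38, against 0.14, 0.39 and 0.68 in native WT. Again no FLAG library overlapped the WT libraries, and replicate 2 was the lowest native FLAG library for both genes.

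The log2 fold change of Gm15581 was 1.71 with crosslinking (SE 0.32) and 1.45 without (SE 0.42). Over all libraries it was 1.55 (SE 0.28, adjusted p = 0.0468), which passed the call. The call was lost with a pseudocount of 8 (adjusted p = 0.0694), without the variance trend (0.0602), with the replicate number as a block (0.0721), with genotype and number as a random block (0.133) and when any of 8 single libraries was left out (up to 0.153). Without native FLAG replicates 1 and 3 it was 1.26 (adjusted p = 0.198). The log2 value of Cav2 minus that of Gm15581 lay between -0.23 and 0.00 in the FLAG libraries and between -1.56 and -0.31 in the WT libraries. This within-library difference, chosen after the values were seen, was thus higher in FLAG by 0.65 (exact two-sided permutation p = 0.0167, the smallest possible), so that Cav2 exceeded its antisense neighbour in enrichment on the log2 scale. With 8 added to the linear values the difference was 0.04 and did not pass (exact permutation p = 0.217).

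The other 10 genes in the matrix that start within 1 Mb of the caveolins did not share this pattern in both protocols. Met, the receptor of hepatocyte growth factor 183 kb downstream, had log2 fold changes of 0.61 and 0.93 with SEs of 0.89 and 0.58. Capza2, an actin capping subunit, had 0.20 and 0.54. Tes, a focal adhesion protein upstream of the caveolins, had -0.17 and -0.91, and the chloride channel gene Cftr had -1.604 and -1.25. None of the 10 was called by limma, and 4 had an unadjusted p under 0.05 and a log2 fold change below -0.58 across all libraries, where 5.28% of all genes had both. The median over the 11 neighbours, Gm15581 included, was -0.61, beside -0.03 over all genes.

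St7 stood at -0.33 with crosslinking and -0.82 without, and the antisense RNA Gm4876 beside Tes at -0.02 and -0.65. The pseudogene Gm13899 had -0.23 and -0.03. The unclassified transcripts Gm43533, Gm42852 and Gm43844 had -0.22, -0.27 and -0.48 with crosslinking and -0.999, -1.06 and -1.26 without. Among the neighbours the FLAG libraries lay wholly above the WT libraries in both protocols for 1 gene, Gm15581, while 770 genes of the matrix, 4.84%, did so.

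**Figure D3:**
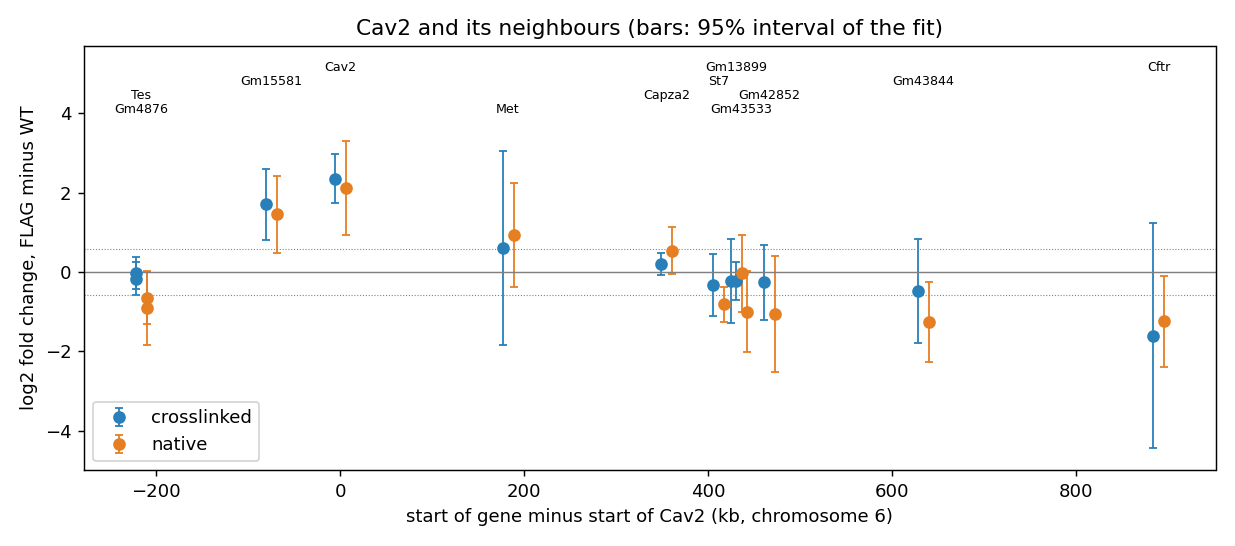
Log2 fold change of FLAG over WT (vertical axis) for Cav2 and the 11 other genes in the matrix that start within 1 Mb of a caveolin gene, by the distance of their start from that of Cav2 in kb (horizontal axis), in crosslinked (blue) and native (orange) libraries. Bars are 95% intervals of the limma fit, dotted lines mark 0.58 in either direction, and the intervals of Cav2 and Gm15581 lie above 0 in both protocols.

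Of 37 genes in lists for the caveola coat, caveolin turnover and signalling at caveolae, 29 were in the matrix. limma called 0 of them over all libraries under the deposited scale, a count near what the 0.264% of all genes called higher would give, and 1 gene, Cavin1, passed in the higher direction at an unadjusted p under 0.05, where 7.24% of all genes did. A fold change above 0.58 was seen for 2 of the 29, against 10.3% of all genes. The median log2 fold change of the 29 was 0.09, beside -0.03 over all genes.

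Cavin1, the cavin without which caveolae do not form, had the largest fold change of the coat list over all libraries. Its values were 1.01 and 1.54 in crosslinked FLAG and 0.42 and 0.30 in crosslinked WT, with no overlap. In native libraries they were 1.32, 2.20 and 2.30 in FLAG and 1.49, 1.51 and 0.92 in WT, where the groups overlapped.

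The log2 fold change of Cavin1 was 0.92 with crosslinking (SE 0.24), 0.63 without (SE 0.37) and 0.75 over all libraries (SE 0.24, adjusted p = 0.147). With array weights Cavin1 was called (1.04, limma adjusted p = 0.000259), but 1105 genes were then called higher, against 42 without weights. The weights were 10.19 for crosslinked FLAG replicate 2 and 9.02 for crosslinked WT replicate 1, against at most 1.36 in the other libraries. Cav2 exceeded Cavin1 in its fold change by 1.46 on the log2 scale (exact two-sided permutation p = 0.0333, smallest possible 0.0167), a comparison chosen after the values were seen. Its p was at or above 0.05 when any of 8 single libraries was left out and reached 0.15 with 8 added to the linear values.

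Among the other coat genes, the neck protein gene Ehd2 had -0.05 and 0.05 with and without crosslinking, and Pacsin2, which bends the membrane, had 0.10 and 0.09. The muscle cavin Cavin4 had 0.19 and -0.39. Pacsin3 had 0.12 and 0.90, with 1 native WT library low at -1.10. Ehd1, Ehd4, Flna and Dnm2 lay between -0.04 and 0.26 over all libraries, and Ror1, a receptor that scaffolds caveolae, at -0.26. Cav3, Cavin2, Cavin3 and Popdc2 were not analysed here.

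Of the 8 genes of caveolin turnover and membrane rafts, all in the matrix, none had a fold change beyond 0.58 in either protocol, and their median over all libraries was 0.19. Vcp, whose product extracts ubiquitinated caveolin for degradation, had 0.21 and its cofactor Ubxn6 0.07. The flotillin genes Flot1 and Flot2, which mark non-caveolar rafts, had 0.41 and 0.26. Among the 11 genes of signalling at caveolae the range over all libraries was -0.33 to 0.42, with Egfr lowest and Bmpr2, a BMP receptor, highest. Of the 29 genes 1, Bmpr2, had its FLAG libraries above the WT libraries in both protocols, which is 3.45% beside 4.84% of all genes.

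**Figure D4:**
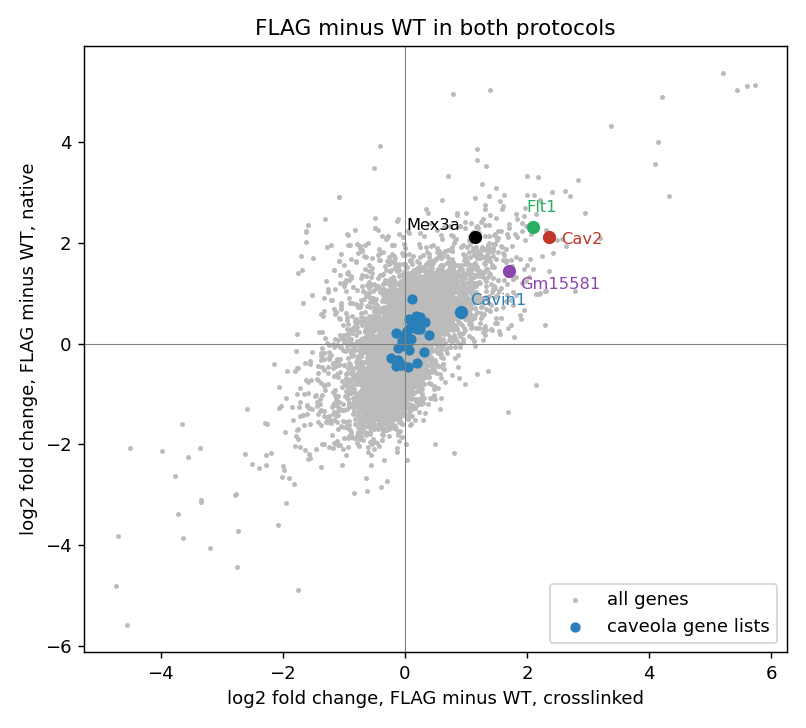
Log2 fold change of FLAG over WT in the crosslinked (horizontal axis) against the native libraries (vertical axis) for all 15899 genes (grey), with the 29 genes of the caveola lists in blue. Cav2 lies at 2.35 and 2.11, and the caveola genes lie between -0.22 and 0.92 on the horizontal and -0.47 and 0.90 on the vertical axis.

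The 5 genes whose log2 values followed those of Cav2 most closely over the 10 libraries were Itga4 (Pearson r = 0.951), Gm15581 (0.951), Vma21 (0.930), 1700071M16Rik (0.930) and Pla2g7 (0.924). Of 15898 genes compared, 17 had an r above 0.9, and the median was -0.085. The correlation is a description over 10 libraries of 2 genotypes, and a gene that differs between FLAG and WT in the same direction scores high for that reason. After each group's mean was taken away, r was 0.697 for Itga4, 0.721 for Gm15581, 0.695 for Vma21, 0.526 for 1700071M16Rik and 0.572 for Pla2g7.

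Itga4, an integrin subunit, was far more abundant than Cav2 and had a fold change of 1.14 over all libraries (SE 0.17, adjusted p = 0.0234). Pla2g7, a secreted phospholipase that hydrolyses platelet-activating factor, had 0.91 (SE 0.12, adjusted p = 0.0169). Vma21, an assembly factor of the proton pump of lysosomes, had 1.04 (adjusted p = 0.0627), and 1700071M16Rik had 0.96 (adjusted p = 0.0508), so that neither was called. 1700071M16Rik is annotated as an antisense RNA and lies within the body of Pla2g7 on chromosome 17 (GRCm38, 43588340 to 43592442 inside 43568098 to 43612201), so the list holds a further gene with its antisense partner. Mex3a ranked 142 by r (0.828), and Cavin1 2356 (0.536).

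Because caveolins mark blood vessels, genes of the endothelium were read beside Cav2. Of 10 endothelial genes 5 were in the matrix, and Cdh5, Cldn5, Tie1, Emcn and Egfl7 were not analysed here. The summed linear value of the 5 ranged from 20.9 to 23.0 in crosslinked FLAG, 11.3 to 15.2 in crosslinked WT, 15.4 to 27.2 in native FLAG and 12.4 to 13.0 in native WT. The sum was thus higher in FLAG in both protocols, and 1 gene carried it.

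Flt1, a VEGF receptor, had log2 fold changes of 2.10 and 2.32 and was called over all libraries (2.23, SE 0.40, adjusted p = 0.0468). The other 4 pointed the opposite way over all libraries, with Kdr at -1.09, Esam at -0.96, Tek at -0.74 and Pecam1 at -0.58. limma called none of the 4, beside 0.233% of all genes called lower, and Esam, Tek and Pecam1, 3 of the 5 endothelial genes, passed in the lower direction at an unadjusted p under 0.05, beside 5.28% of all genes. Acta2 and Tagln, the 2 genes of 8 on the mural and fibroblast list that were in the matrix, had -0.43 and -0.52. The summed linear value of 3 of 6 microglial genes ranged from 31.9 to 33.9 in the FLAG libraries and from 28.8 to 36.6 in the WT libraries. Of the ependymal list 2 of 4 genes were in the matrix, with sums of 1.99 to 9.17 in FLAG and 1.60 to 4.05 in WT. The part of such cells in the Cav2 difference was not tested.

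Among neural stem and progenitor genes, the log2 fold change over all libraries was 0.98 for the transcription factor gene Sox2 (adjusted p = 0.0865) and 1.01 for Vim, which encodes an intermediate filament protein (adjusted p = 0.117). Nes had 0.52, Fabp7 0.79, Pax6 0.31 and Slc1a3 -0.44, and none of these was called by limma. The FLAG libraries lay above the WT libraries in both protocols for Sox2 and Pax6, 2 of the 7 progenitor genes named here, beside 4.84% of all genes. Of 5 astrocyte genes 4 were in the matrix and none was called by limma over all libraries, beside 0.264% of all genes, with log2 fold changes of 1.66 for Aqp4, 0.76 for Slc1a2, 0.06 for Aldh1l1 and -0.19 for S100b. At an unadjusted p under 0.05 with a fold change over 0.58, 2 of the 4 passed in the higher direction, beside 7.24% of all genes, and the FLAG libraries of Aqp4 and Slc1a2 lay above the WT libraries in both protocols, beside 4.84% of all genes. Of 4 neuronal genes 2 were in the matrix, of which Rbfox3 was called lower (-1.31, adjusted p = 0.0127) and Map2 had -0.36 (adjusted p = 0.0816). Olig2, a transcription factor gene of the oligodendrocyte lineage, had 0.94 (adjusted p = 0.137). Whether these differences bear on Cav2 was not tested.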

How the data were processed

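RNA from anti-FLAG pull-downs was sequenced in 10 libraries. Per the processing notes and methods, the authors used FastQC, Cutadapt, Trimmomatic, HISAT2 on GRCm38 (mm10) and featureCounts, removed low genes and normalized the counts, for which the methods name DESeq2 and the notes limma. The authors deposited 1 matrix of log2 values with nearly the same distribution in every library. The linear values of a library sum to between 949427 and 949437, so depth is unknown, and fold changes of low genes depend on the normalization. The number of libraries in a group, 2 or 3, limits the precision.

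FLAG was compared with WT on the deposited log2 values, with no filter or pseudocount, by lmFit and eBayes with a trend in limma 3.58.1 (R 4.3.3), in each protocol and over both with the protocol as a covariate. A fit of 4 groups gave the difference between protocols and the effect of formaldehyde. Thresholds were an adjusted p under 0.05 and a log2 fold change over 0.58. The fits were tested on simulated data. Single values were tested by exact permutation. Annotation and transcripts came from GENCODE M21 (GRCm38), and the 3' UTR was searched as a pattern of letters on the transcribed strand. Levels per length subtract the log2 of the exon length in kb. Tables were made in Python 3.11.15 with pandas 2.3.3, numpy 2.4.6 and scipy 1.17.1, and plots in matplotlib 3.10.9.

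The members and gene lists were chosen with earlier results of these data known. Named genes were Cav2, the called members of the caveola lists or otherwise the cavins, Ehd2, Pacsin2, Egfr and Mex3a, all chromosome 6 neighbours within 1 Mb and the 5 genes most like Cav2. Other list members were named after their values were seen.

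Same-numbered FLAG and WT libraries of a protocol deviated in opposite directions (r of -0.274 with crosslinking and -0.149, -0.430 and -0.167 without). The numbers were thus not taken as pairs of FLAG with WT. With 2 libraries in a crosslinked group the deviations mirror each other, so differently numbered crosslinked libraries had 0.274. Differently numbered libraries ranged from -0.388 (crosslinked WT replicate 1, native WT replicate 2) to 0.401 (native FLAG replicate 2, native WT replicate 3). The r values therefore cannot settle what the numbers mark. Crosslinked and native libraries of the same genotype and number deviated together, and genotype and number as a random block (duplicateCorrelation) was added after the data were seen. Alternatives were pseudocounts of 1 and 8, a minimum linear mean of 10, quantile normalization, median centring, no trend, robust moderation, array weights, the replicate block, 1 fit of 4 groups and each library left out.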

Additional observations from a re-analysis of the deposited data

How the results depend on the processing

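The Cav2 difference over all libraries kept its direction under every alternative and lost its call with a pseudocount of 8 (0.37, limma adjusted p = 0.0405, under the 0.58 threshold), when 1 of 7 single libraries was left out (2.02 to 2.46 over all 10 omissions) and, as alternatives chosen after seeing the data, without native FLAG replicates 1 and 3 (1.88, adjusted p = 0.137) or with genotype and number as a random block (2.20, adjusted p = 0.0823). The native difference was called with array weights (2.16, adjusted p = 0.0134) and without native FLAG replicate 2, with a range of 1.74 to 2.54 over the 6 omissions. The crosslinked difference ranged from 2.21 to 2.50 over 4 omissions and was called under none. Where an omission left 1 library in a group, that library was assumed to vary like the others. With the replicate number as a block the Cav2 difference over all libraries was 2.21 (adjusted p = 0.0261), and its call did not change. Crossing the numbers of the crosslinked libraries left 0 genes called higher and 0 lower by limma.

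The uncalled difference between protocols turned to 0.0164 with a pseudocount of 8 and ranged from -0.61 to 0.19 over omissions, turning positive without native FLAG replicate 2 (0.19) or native WT replicate 3 (0.02). Crosslinked minus native in FLAG turned to 0.15 with the replicate block, to 0.77 without native FLAG replicates 1 and 3, and ranged from -0.52 to 0.13 over omissions, positive without crosslinked FLAG replicate 1 (0.06), native FLAG replicate 1 (0.12) or native FLAG replicate 3 (0.13).

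The 42 genes called higher over all libraries became 10 with a pseudocount of 8, 13 with a minimum linear mean of 10, 13 without a trend, 14 with the replicate block, 1105 with array weights, 8 without native FLAG replicates 1 and 3, 7 with genotype and number as a random block, and 4 to 516 over single omissions. The 37 called lower became 12, 20, 964, 10 and 8 without a trend, with the block, with array weights, without those replicates and with the random block, and 7 to 219 over omissions. Of the caveola lists 1 gene was called higher with array weights. The matches in the Cav2 3' UTR rose from 3 to 7 with the other form of the element and to 6 over merged exons. The causes were not tested. The minimum linear mean of 10 removed Cav2, whose highest group mean was 3.52 on the linear scale, and Cav2 minus Cav1 was not run. Depth is unknown, and the counting error of single values cannot be given.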
